A study of Drosophila melanogaster with 2 samples.

Results

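The peaks described here are promoter peaks of hbn-eGFP whose summits lay 0 to 500 bp downstream of the start of a single protein-coding gene. Each summit was assigned to the nearest protein-coding transcript start, and a peak was kept when no start of another gene, on the opposite strand and pointing away, lay within 1000 bp of that start. The rule used position and annotation only, and 416 of 3592 peaks on the chromosome arms met it (11.6%). They made up 13.5% of the 3086 summits within 500 bp of a coding start. The other promoter summits were 1202 single-gene peaks 1 to 500 bp upstream of the start and 1468 peaks at divergent promoters. The 416 peaks belonged to 393 genes and 400 starts.

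The data came from chromatin immunoprecipitation sequencing of whole Drosophila melanogaster embryos aged 0 to 18 h, from a transgenic line in which homeobrain (hbn) is fused to eGFP. The precipitating antibody recognised GFP, per the labels' description, while the antibody field names hbn. Chromatin was sonicated to 200 to 800 bp. There was 1 group with 2 biological replicates, and both carried the fusion, so there was no untagged or mock group to compare with. The deposited signal is relative to a control file, and the sources used here do not state its kind. Whole embryos mix all cell types, and the driver of the fusion is not given in the sources used here. The peaks were those of the conservative set, in which a peak had to keep its rank between the replicates by the irreproducible discovery rate. Peaks are not replicates of a condition: all of them share these 2 libraries, and the tests below compare peaks with peaks.

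Homeobrain is a paired-like homeodomain factor, a class known for binding TAAT-type sequences. Start sites of broadly expressed fly genes often carry the DNA replication-related element (DRE), an 8-base palindrome recognised by the factor Dref, or motif 1, recognised by M1BP. The bases just downstream of a start usually belong to the 5' untranslated exon, where the paused polymerase and the first nucleosome are also found.

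The sequences that follow show what lay under the strongest downstream summits. They are 30-base stretches of the RefSeq copy of the dm6 assembly, written 5' to 3' on the coding strand of the gene. Capitals mark the DRE core, TATCGA or its reverse complement TCGATA. The first 6 belong to the strongest peaks within 50 bp of the start that held this core within 100 bp of the summit.
jagn: tagcgaggagcgTATCGAtgtgcgccagtt
CG7650: tgacaatcgaccTATCGAtactaccattag
UQCR-14: agtgctcgttgaTCGATAacggggtgcgat
pug: aattcaagcttaTCGATAaataaaatatta
cyst: atcgggtaagcaTCGATAtaagttccaacc
CG14657: actggcaccacgTATCGAaacatcgattgg
These lie at chr3R:5779271-5779300 (+), chr3L:15610349-15610378 (-), chrX:16286288-16286317 (+), chr3R:10696492-10696521 (+), chr2L:19508728-19508757 (-) and chr3R:4821420-4821449 (-). The centre of the core shown, the nearest to the summit, was downstream of the start at CG7650 (22.5 bp), UQCR-14 (14.5 bp) and cyst (21.5 bp). It was upstream of the start at jagn (-29.5 bp), pug (-27.5 bp) and CG14657 (-2.5 bp), although the summit was downstream. CG7650 had another core nearer to its start, at -18.5 bp.

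Beyond 100 bp few summits had a core. Shown first are 4 of the stronger peaks that did, and 2 of the strongest that did not are shown after them, as the 30 bases around the summit with nothing in capitals.
Ptpmeg2: catcgcttagcaTCGATAacgaccgagaac
hyx: agtaacaaaaacTATCGAcactaacgcgaa
TTLL4B: cgagtactcgagTCGATAgctgtcttatag
nxf2: ttttcataacctTCGATAgatcgtagaatg
Pfrx: gtgtgcccatctttcgttttgtacagatgt
milt: ggcacgacagagcggttatcggtgcacagc
Their positions are chrX:9658950-9658979 (-), chr3R:9038848-9038877 (+), chr2L:3862734-3862763 (+), chr3L:16580220-16580249 (-), chrX:19497088-19497117 (+) and chr2L:7037951-7037980 (+). At Ptpmeg2 and hyx the core was 4.5 and 6.5 bp from the summit, 180.5 and 102.5 bp inside the transcribed region. At TTLL4B it was 91.5 bp from the summit.

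Motif 1, GGTCACAC, is shown in capitals for 3 of the stronger downstream peaks that held it within 100 bp of the summit.
cyst: gccgccgtcatGGTCACACtgcccgactgc
mbt: gccacggcaacGGTCACACtgccgccattg
Ubc4: tgcaccgcggcGGTCACACtacggaaaaac
They lie at chr2L:19508768-19508797 (-), chrX:16610632-16610661 (+) and chr3L:9698310-9698339 (+). Of the 26 downstream windows with motif 1, 22 held it on the coding strand and 4 on the other strand. Most single-gene upstream windows with motif 1 also held it on the coding strand, 71 of 99, with 28 on the other strand.

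Most downstream summits sat close to the start, with a second, smaller group farther in. The median distance was 69 bp (quartiles 22 and 149, highest 495). By distance, 179 summits lay 0 to 50 bp from the start, 70 lay 51 to 100 bp, 127 lay 101 to 200 bp and 40 lay 201 to 500 bp. Counts per 25 bp fell from 112 in the first bin to 29 at 75 to 99 bp, were 38 at 125 to 149 bp and 34 at 150 to 174 bp, and dropped to 5 at 225 to 249 bp. These distance ranges were chosen after the distribution was seen, so values by range are given without a test.

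**Figure D1:**
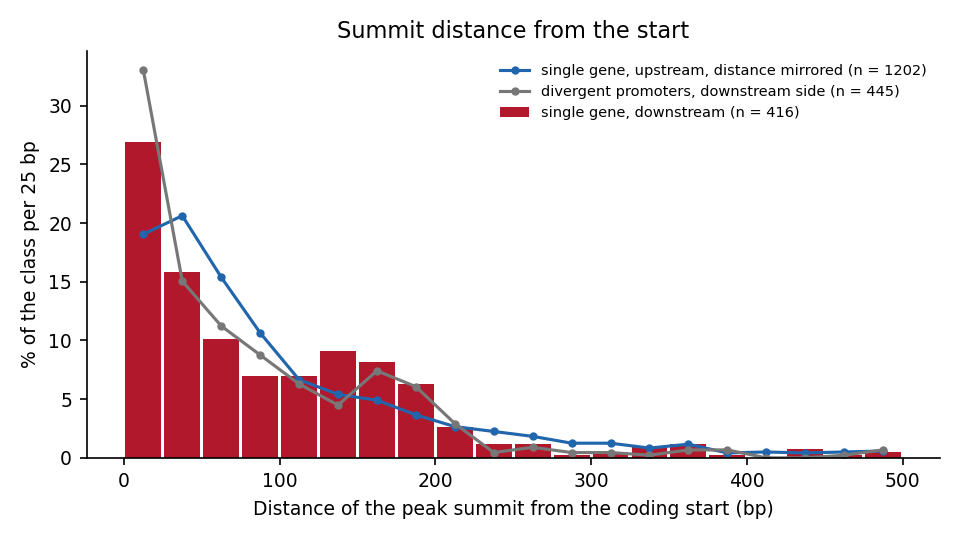
Share of each class of promoter summit per 25 bp (y axis, %) by distance of the summit from the nearest coding start (x axis, bp). Red bars are the 416 single-gene downstream peaks; blue points are the single-gene upstream peaks with distance mirrored and grey points the downstream side of divergent promoters. The red bars fall from 26.9% in the first bin to 6.97% at 75 to 99 bp and stand at 9.13% at 125 to 149 bp.

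Nearest to the rule's edges, the 5 downstream summits at 0 bp belonged to CG7115, Srrm1, Usp10, lwr and Ddx56, with signals from 110 to 296. The 5 just outside, 1 bp upstream, belonged to CG9135, CG4853, cpb, CG32344 and Adar, with signals from 196 to 497. At the far edge CG1628 at 495 bp had a signal of 69.9 and Dek, outside at 504 bp, had 84.7. The replicates placed some summits at the near edge on the other side: CG7115 was at -6 bp in replicate 1 and -44 bp in replicate 2.

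Downstream peaks were weaker than upstream peaks. Signal is the deposited enrichment value of a peak, on a scale that the sources used here do not state. Its median was 84.4 (quartiles 64.2 and 125) for downstream peaks, 135 (87.9 and 243) for single-gene upstream peaks and 142 for divergent ones. The divergent value covers both sides, with 445 peaks downstream of the assigned start and 1023 upstream. Medians by distance for those 445 are given below. At or above the median of all peaks, 119, were 114 of 416 downstream peaks (27.4%, Wilson 95% interval 23.3 to 31.9) and 697 of 1202 upstream peaks (58.0%, 55.2 to 60.7). The odds ratio was 0.273 (0.214 to 0.349), with p = 2.1e-27 in a 2-sided exact test of Fisher. It was 0.479 in the set of replicate 2 alone (without replicate 1) and 0.122 for summits more than 50 bp from the start. Among the 100 strongest peaks 3 were downstream, 54 upstream and 41 divergent. Both replicates gave lower values downstream: the linked entries had medians of 57.8 against 88.7 in replicate 1 and 41.7 against 54.3 in replicate 2. Some linked entries belonged to more than 1 conservative peak, as given below.

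The conservative signal also fell with distance. Its median was 117 at 0 to 50 bp, 82.2 at 51 to 100 bp, 67.8 at 101 to 200 bp and 64.6 at 201 to 500 bp. Upstream peaks showed a like order, with medians of 175, 157, 112 and 86.9 over the mirrored ranges. On the downstream side of divergent promoters the medians were 124, 78.0, 69.2 and 44.8. Single-gene downstream peaks beyond 100 bp had a median of 83.7 without a stronger summit within 500 bp (89 peaks). The 78 with one had 20.9. By range, the linked entries of all single-gene downstream peaks did not fall at each step. Their medians were 75.6, 51.8, 53.1 and 47.3 in replicate 1 and 46.9, 35.8, 43.9 and 36.7 in replicate 2.

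**Figure D2:**
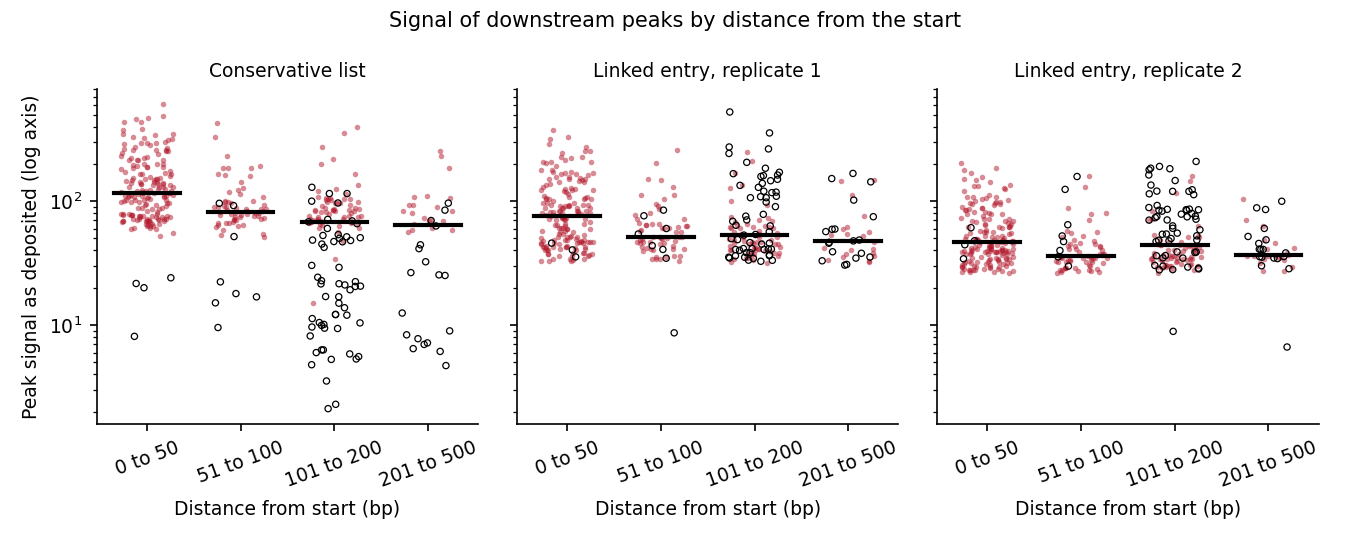
Deposited peak signal (log y axis) of the single-gene downstream peaks by distance from the start (bp), for the conservative list and for the linked entry in each replicate's ranked list. Each point is 1 peak, open circles are peaks with a stronger summit within 500 bp, and bars are medians (117, 82.2, 67.8 and 64.6 in the left panel).

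The strongest downstream peak was at jagn (jagunal, FBgn0037374), an endoplasmic reticulum protein, with a signal of 607 and the summit 4 bp from the start. Its linked entries had signals of 378 in replicate 1 and 205 in replicate 2, with summits at 3 and 0 bp. It ranked 31st among all peaks. Rpn10, the ubiquitin receptor of the proteasome, followed with 490 at 14 bp (318 and 179 in the replicates). CG7650 had 473 at 5 bp. UQCR-14, a subunit of respiratory complex III, had 462 at 3 bp (288 and 167). The folate enzyme gene pug had 438 at 28 bp, and the RhoGEF gene cyst had 432 at 3 bp.

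Of the 25 strongest downstream peaks with a summit of each replicate's own set within 100 bp, 21 lay within 50 bp of the start. The core TATCGA was within 100 bp of 20 of these summits, the full DRE of 14 and motif 1 of 2. None had a stronger summit within 500 bp. OstDelta, an oligosaccharyltransferase subunit, had 430 at 52 bp, and sw, the dynein intermediate chain, had 332 at 78 bp. Other genes of the group included RNaseX25 (377), Atx2, an RNA-binding protein (350), Nipsnap (349), the kinase gene mbt (310), Rab19 (296), Srrm1, a splicing cofactor (295), Nmt, the N-myristoyltransferase (291), and Vap33, a membrane contact protein (284). Sik3, a salt-inducible kinase, and Ptpmeg2, a tyrosine phosphatase, were the exceptions in distance. Their summits were 197 and 185 bp in, with signals of 400 and 353. For Sik3 the replicate summits were at 197 and 183 bp, and for Ptpmeg2 at 177 and 186 bp.

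Only 13 of the 167 peaks beyond 100 bp reached the median signal of all peaks, and 3 of these had the core. The farthest were Pfrx, a bifunctional enzyme of fructose 2,6-bisphosphate metabolism, with 257 at 428 bp, and BEAF-32, an insulator protein, with 232 at 360 bp. Both replicates placed these summits inside the gene, at 458 and 434 bp for Pfrx and at 389 and 344 bp for BEAF-32. The gene milt, the mitochondrial adaptor of kinesin, had 218 at 143 bp. Others named by this rule were ClpX (184 at 212 bp), bsd (167 at 166 bp) and vers (130 at 191 bp). Of these 3, vers alone had a stronger summit within 500 bp and was not found in both replicate sets.

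Many of the distant peaks lay beside a stronger one. A stronger conservative summit lay within 500 bp of 90 of 416 downstream peaks (21.6%, Wilson 95% interval 18.0 to 25.8), against 11.3% of all peaks and 6.16% of single-gene upstream peaks. By distance the share was 2.23%, 11.4%, 46.5% and 47.5%. On the downstream side of divergent promoters it was 12.1%, 27.8%, 45.9% and 37.5%, and for single-gene upstream peaks at 201 to 500 bp it was 30.7%. The strongest summit within 500 bp lay on the 5' side in 85 of the 90 cases, and upstream of the start in 71. The spacing was narrow: its lowest value was 199 bp, its median 203 bp and its quartiles 201 and 206 bp, and 62 of the 90 fell at 200 to 210 bp. The conservative list has a full peak width of 460 bp, carried by 357 of the 416 downstream peaks.

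**Figure D3:**
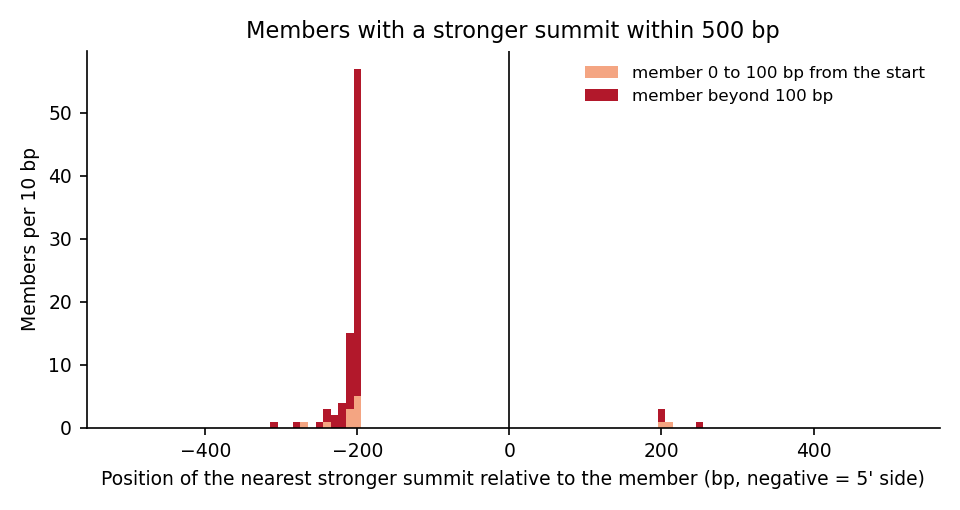
Position of the strongest summit within 500 bp relative to the downstream peak (x axis, bp, negative on the 5' side, labelled as the nearest stronger summit). Shown are the 90 downstream peaks that had a stronger summit in that range (y axis, peaks per 10 bp). Most of these stronger summits lie at about -200 bp: the median spacing is 203 bp and the lowest 199 bp.

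The peaks with a stronger neighbour had a median signal of 20.9, against 97.1 for the 326 without one. Of the 43 downstream peaks with a signal under 20, 42 had such a neighbour. In 62 downstream peaks the conservative signal was below the signals of both linked replicate entries, and 61 of these had a stronger neighbour. Among the 90, the linked entry was also linked to another conservative peak for 56 in replicate 1 and for 82 in replicate 2. The weakest was polo, the mitotic kinase, at 2.11 and 140 bp. RpS30, a ribosomal protein, shows the pattern at a known gene: its conservative signal was 42.4 at 114 bp, with linked signals of 264 and 163. Without the 90 peaks, 113 of 326 downstream peaks (34.7%) reached the median of all peaks, against 688 of 1128 upstream peaks (61.0%) after the same removal. With the median taken anew over the peaks that were left, the odds ratio was 0.347. The part of peak spacing in the count of distant peaks was not tested.

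Some genes had more than 1 downstream peak. There were 21 such genes with 44 peaks, and 20 of the 44 had a stronger summit within 500 bp. Where 2 downstream summits share a start, the rule itself puts them within 500 bp of each other, so that count is no separate support. At jagn the second summit was 208 bp from the start with a signal of 84.7, against 607 at 4 bp. At CG10470 the pair had 268 at 43 bp and 8.98 at 246 bp, and both were linked to the same replicate entries (168 and 99.9). PEK, an eIF2α kinase, and CG9331 had 2 downstream peaks each at separate starts, without a stronger neighbour.

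Most downstream peaks were on the downstream side in both replicates. Each conservative peak was linked to its entry in each replicate's ranked list, and 415 of 416 downstream peaks had one in each replicate. Both linked summits lay 0 to 500 bp downstream of the same start for 242 of 416 (58.2%, Wilson 95% interval 53.4 to 62.8), and both lay upstream of it for 49 (11.8%). For single-gene upstream peaks both linked summits were on the upstream side in 1033 of 1202 (85.9%, 83.9 to 87.8). That pair of shares was not tested, since position chose the classes. Linked summits were within 50 bp of the conservative one for 70.1% of downstream peaks in replicate 1 and 59.8% in replicate 2. The median shift was -8 bp in replicate 1 and -6 bp in replicate 2, towards the start. Beyond 100 bp without a stronger neighbour, the linked summit stayed downstream for 98.9% of 89 peaks in replicate 1 and 97.8% in replicate 2. For the 78 with a stronger neighbour it did so in 53.8% and 39.7%.

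Downstream peaks were found less often in the sets called from each replicate alone. Summits of both sets lay within 100 bp of 116 of 416 downstream peaks (27.9%, 23.8 to 32.4) and of 652 of 1202 upstream peaks (54.2%, 51.4 to 57.0), against 47.2% of all peaks. The odds ratio was 0.326 (0.256 to 0.416, p = 6.7e-21 in the same exact test). Counting any overlap of 1 bp gave 178 downstream peaks (42.8%) against 58.1% (odds ratio 0.540), and summits more than 50 bp from the start gave an odds ratio of 0.130. Among peaks at or above the median signal the shares were 85.1% and 86.2% (odds ratio 0.911, 0.521 to 1.59, exact p = 0.77). By the stricter measure, the nearest summit of each replicate's own set was also downstream of the same start for 77 of 416 (18.5%, 15.1 to 22.5).

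The DRE was less frequent under downstream summits. TATCGA lay within 100 bp of 137 of 416 downstream summits (32.9%, 28.6 to 37.6) and of 653 of 1202 upstream summits (54.3%, 51.5 to 57.1). All peaks together had 48.5%, and windows of the same length around all 19275 coding starts 20.2%. The odds ratio was 0.413 (0.327 to 0.522), with a Fisher's exact p of 6.6e-13 after adjustment over the panel of 16 motifs. It was 0.630 in 200 bp windows (48.3% against 59.7%) and 0.228 for summits more than 50 bp from the start. The full DRE, TATCGATA, was found in 13.9% of downstream and 25.8% of upstream windows (odds ratio 0.466, 0.343 to 0.633; exact test, adjusted p = 2.5e-06), against 21.9% of all peaks and 6.44% of coding starts. For summits more than 50 bp from the start its odds ratio was 0.205. Every TATCGATA site also holds TATCGA, so the pair is not independent.

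Among peaks at or above the median signal this gap was not detected. There TATCGA was in 74.6% of 114 downstream windows and 76.3% of 697 upstream windows (odds ratio 0.909, 0.576 to 1.43, exact test, adjusted p = 0.93). The full DRE was in 40.4% and 38.5% (odds ratio 1.08, 0.723 to 1.62, exact test, adjusted p = 0.93). Under the median TATCGA was in 17.2% of 302 downstream and 24.0% of 505 upstream windows.

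Within the downstream peaks the DRE was mostly near the start. TATCGA was in 57.0% of windows at 0 to 50 bp, 28.6% at 51 to 100 bp, 9.45% at 101 to 200 bp and 7.50% at 201 to 500 bp. The full DRE was in 26.3%, 12.9%, 0.787% and 2.50%. Signal and spacing moved with distance as well, and their part in these shares was not tested. Beyond 100 bp the core was in 6.41% of the 78 peaks with a stronger neighbour and 11.2% of the 89 without one. The downstream side of divergent promoters showed a like fall. By the same distance ranges TATCGA was there in 65.4%, 38.9%, 8.26% and 9.38% of windows. The full DRE was there in 29.9%, 13.3%, 0% and 0%.

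**Figure D4:**
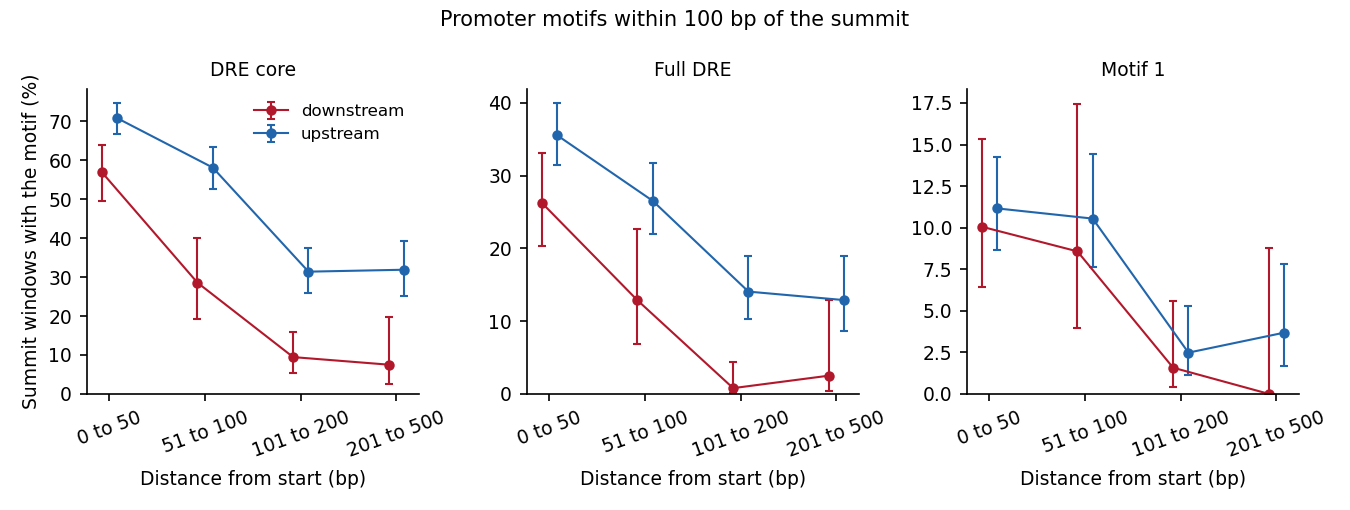
Share of summit windows (y axis, %) with the DRE core, the full DRE or motif 1 within 100 bp of the summit, by distance of the summit from the start (x axis, bp). Red is downstream and blue upstream single-gene peaks, with Wilson 95% intervals; the DRE core falls from 57.0% to 7.50% downstream and from 70.9% to 31.9% upstream.

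The position of the DRE around the start also differed. Of 221 starts with a downstream peak and a TATCGA within 250 bp, the nearest core lay downstream of the start in 70 (31.7%, 25.9 to 38.1). At starts with an upstream peak it did so in 144 of 698 (20.6%, 17.8 to 23.8). The odds ratio was 1.78 (1.27 to 2.50, p = 0.00098 by the exact test of Fisher), and 2.37 among peaks reaching the median signal. Both groups counted 50 starts that had a peak of each kind; without the 99 genes with both kinds the odds ratio was 2.07 (1.41 to 3.03). With the full DRE it was 2.92. The median position of the core was -14.5 bp for downstream and -27.5 bp for upstream peaks. From the summit, the nearest core was a median of 33.5 bp away in 137 downstream windows and 17.5 bp in 653 upstream windows.

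**Figure D5:**
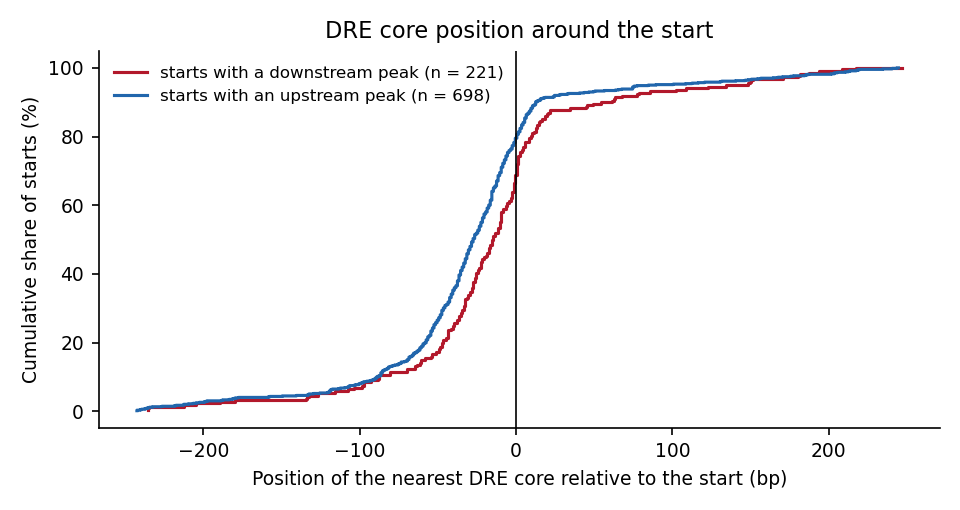
Cumulative share of starts (y axis, %) by position of the nearest DRE core relative to the start (x axis, bp). Red is the 221 starts with a downstream peak, blue the 698 with an upstream peak; at the start itself the red curve is lower, with 31.7% of its cores farther downstream against 20.6%.

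In the panel of 16 motifs, 6 were called lower downstream (37.5%) and 1 higher (6.25%). Besides the DRE these were GAGAG, the GAGA factor sequence (22.8% against 31.0%, exact test, adjusted p = 0.0044), GATAAG (8.41% against 15.7%), TATAAA (16.6% against 23.6%) and TTGGCGC (3.12% against 7.07%). TAATCC, a homeodomain sequence of the Bicoid type, was higher (6.49% against 2.58%; odds ratio 2.62, 1.55 to 4.45, exact test, adjusted p = 0.0024), while windows around all coding starts had 6.11%. The TAAT sequences that paired-like homeodomains are known for were not called: TAATTA was in 8.89% against 10.5% and TAATTG in 13.7% against 12.9%. Motif 1 was in 6.25% against 8.24% (odds ratio 0.743, 0.475 to 1.16, exact test, adjusted p = 0.36). At or above the median signal no motif of the 16 was called, and in the set of replicate 2 alone (without replicate 1) 4 were.

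Base composition differed between the classes. The median GC content of the windows was 45.8% downstream and 39.8% upstream, and within the downstream peaks it was 42.8% at 0 to 50 bp and 48.8% at 101 to 200 bp. On the downstream side of divergent promoters it was 40.5% and 46.8% over those 2 ranges. Of 2080 6-mers, 103 were called higher downstream (4.95%) and 80 lower (3.85%) by Fisher's exact test with Benjamini-Hochberg adjustment. The higher ones held 3.92 G or C letters on average and the lower ones 1.11. The core TATCGA led the lower ones. Leading the higher ones, CCAGGA was in 7.93% of downstream and 1.58% of upstream windows. The part of composition in these calls was not tested. At or above the median signal 0 of the 6-mers were called, among 114 downstream peaks. Calls numbered 65 without peaks that had a stronger neighbour and 34 in the set of replicate 2 alone.

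Most downstream summits fell in 5' untranslated exons. These held 307 of 416 (73.8%, 69.4 to 77.8), coding exons 55 (13.2%) and introns 54 (13.0%). At 0 to 50 bp 177 of 179 were in 5' untranslated exons, and at 201 to 500 bp 20 of 40 were in introns. The strongest in a coding exon was CG11560 (185 at 99 bp), and the strongest in an intron was Sik3. The first exon of these genes had a median length of 252 bp, against 237 bp for genes with an upstream peak, and 74 summits (17.8%) lay past the start codon.

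Core promoter elements did not differ past the threshold. The TATA sequence at its usual place was found at 8 of 393 genes with a downstream peak (2.04%) and 30 of 1107 with an upstream peak (2.71%; odds ratio 0.746, 0.339 to 1.64, exact test, adjusted p = 0.86). The initiator was at 7.63% and 8.94% (odds ratio 0.841, 0.550 to 1.29), and the downstream promoter element at 4.58% and 4.97% (odds ratio 0.918, 0.532 to 1.58). Several starts were annotated for 106 of 294 genes (36.1%) and 412 of 1008 (40.9%; odds ratio 0.816, 0.623 to 1.07, exact p = 0.15), leaving out 99 genes with both kinds of peak. That difference passed the threshold with starts counted as separate at 500 bp apart (0.666, exact p = 0.0075) and for summits more than 50 bp from the start (0.711, exact p = 0.0497), and the ratio was above 1 in each replicate's own set. A non-coding start was nearer to the summit for 3 downstream peaks (0.721%) and 38 upstream peaks (3.16%; odds ratio 0.223, 0.0683 to 0.725, exact p = 0.0056). That call was lost in each replicate's own set (odds ratios 0.653 and 0.353). The 3 were CG8036 and CG31248, beside tRNA genes, and RpL37A, beside an antisense RNA.

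Each gene group held at most 3 genes with a downstream peak. Of all 13968 protein-coding genes, 393 had one (2.81%), 1107 had an upstream peak (7.93%) and 1361 a divergent one (9.74%). Cytosolic ribosomal protein genes had 3 of 85 (3.53%; RpL37A, RpS27A and RpS30), against 11 with an upstream and 22 with a divergent peak. Proteasome genes had 3 of 48 (6.25%), against 6 upstream and 11 divergent: Rpn10 (490), the ATPase subunit Rpt6 (110) and Prosalpha5 (22.3). Respiratory chain genes had 3 of 81 (3.70%), against 11 upstream and 11 divergent, namely UQCR-14 (462), ND-13B (143) and ND-B14.5A (52.9). Translation initiation genes had 3 of 44 (6.82%), against 5 upstream and 7 divergent, with eIF3j the strongest at 131. Mitochondrial ribosomal protein genes had 2 of 73 (2.74%), mRpL40 (112) and mRpL14 (70.3), against 2 upstream and 21 divergent.

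Ubiquitin-conjugating enzymes had 2 of 11 (18.2%), Ubc4 (246 at 1 bp) and Ubc2 (176 at 12 bp). None of the 11 had an upstream peak, and 2 had a divergent one. Homeobox genes had 1 of 85 with a downstream peak, against 16 with an upstream one. That gene was vvl, a POU homeodomain factor, with a conservative signal of 10.5 at 133 bp and linked signals of 41.5 and 28.4. Single members came from the V-ATPase (VhaM9.7-c, 108), the Rab GTPases (Rab19, 296), the signalling receptors (tkv, the Dpp receptor, 213 at 3 bp) and the cyclins (CycY, 166). The tRNA synthetases, the actins and tubulins, the chromatin remodellers and the heat shock genes had none. No conservative summit lay in hbn or within 500 bp of it.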

How the data were processed

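Peak files were used as deposited, on dm6. Column 7 is the deposited peak signal, relative to a control file per the README of each sample, and its scale is not stated. Conservative peaks were matched by position and signal to the deposited ranked list of both replicates, which also holds the −log10 of the global IDR. The positions given there for each replicate linked a peak to its entry in that replicate's own ranked list, where there was one. The sources used here give no aligner, peak caller or depth, so intervals cover numbers of peaks only. Starts came from Ensembl release 115 and sequence from RefSeq, both Release 6. Motif searches covered both strands, 100 bp to each side of a summit. Fisher's exact test, 2-sided, compared shares, with Wilson and Woolf 95% intervals and Benjamini-Hochberg adjustment (SciPy 1.17.1), and procedures were tested on simulated data. Named genes were the 25 strongest peaks found in both replicate sets, the 8 farthest at or above the median signal, 5 on each side of each edge, the 3 strongest per gene list, the strongest per annotation class, genes with 2 or more peaks, and hbn. The sequences shown are those of the strongest, or of some of the stronger, peaks of each kind. Beyond 100 bp, BEAF-32, with the core, was stronger than TTLL4B and nxf2 but is not shown. Sik3, without the core, was stronger than Pfrx and milt and is not shown either. The genes polo, hyx, TTLL4B and nxf2 were chosen after their values were seen. The peaks, motifs and lists were chosen with earlier results of these data known. The text gives values for some of the genes so named.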

Additional observations from a re-analysis of the deposited data

How the results depend on the processing

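Choosing peaks at or above the median signal changed most. It left 114 downstream peaks, with 55.3% placed downstream by both replicate sets, 0 motif calls and 0 6-mer calls. The odds ratios became 0.911 for both replicate sets, 1.08 for TATCGATA, 0.909 for TATCGA, 1.69 for the downstream promoter element, 1.04 for several starts and 0.206 for a nearer non-coding start. Using 1 replicate's own set (without replicate 1 or without replicate 2) gave 219 to 377 peaks, 27.6% to 42.0% placed downstream, 4 to 7 motif calls and 34 to 182 6-mer calls. Here the replicate that supplied the peaks placed them downstream by construction, so only the other replicate could lower that share. The odds ratios were 0.803 to 1.24 for motif 1, 0.964 to 1.02 for the downstream promoter element, 1.04 to 1.11 for several starts and 0.353 to 0.653 for a nearer non-coding start. Summits more than 50 bp from the start left 237 peaks, 12.7% placed downstream and an odds ratio of 0.711 for several starts, which was 0.666 with starts 500 bp apart; both passed the threshold. Motif 1 had 1.00 in 200 bp windows. 6-mer calls were 287 with a divergent limit of 500 bp and 58 in 50 bp windows. Leaving out peaks with a stronger neighbour, an alternative chosen after seeing the data like those on weak entries and on genes with both kinds of peak, gave 65 6-mer calls and 0.329 for a nearer non-coding start. The cause was not tested. RefSeq starts are no independent check: 19276 of their 19277 positions are Ensembl's, both from FlyBase 6.54, and every value was identical. Of the other 167 alternative values, 137 kept their direction and side of the threshold or their size. The DRE core lay downstream more often in each of its alternatives. No paired analysis was possible because there is 1 group.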
